A study of Mus musculus with 18 samples.

Results

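The 10 genes described here mark vascular endothelium and were followed through RNA sequencing of cells isolated from mouse hearts. They are Pecam1, Cdh5, Kdr, Flt1, Tie1, Tek, Emcn, Egfl7, Cldn5 and Vwf, chosen by symbol, and all 10 were among the 19094 protein-coding genes of the count table. The hearts came from 6 mice aged 16 months. The mice carrying the Bag3-P209L transgene (Tg+, 3 mice) were set against Bag3-WT mice (3 mice). BAG3 is a co-chaperone, and P209L exchanges 1 of its prolines for a leucine. Cardiomyocytes and cardiac fibroblasts were prepared from the same mice. The labels list 2 cardiomyocyte libraries per mouse, named rep1 and rep2, and 1 fibroblast library. Whether rep1 and rep2 are separate libraries or sequencing rounds of the same library is not stated. The 18 libraries made 12 mouse and cell type columns after the repeats were summed. The labels name neither the promoter nor the species of the transgene. Mice are numbered within genotype.

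Endothelial cells line all blood vessels, and in the heart the capillaries run along every muscle fibre. Their identity rests on receptors for vascular endothelial growth factor (VEGF) and for the angiopoietins, on adhesion proteins that seal the contacts between neighbouring cells, and on secreted proteins that act in haemostasis and in the vessel wall. Transcription factors of the ETS family, which bind a GGAA core, are known to act on many endothelial promoters. Neither preparation was labelled endothelial, yet every member was read in all 18 libraries. The lowest count in a column was 246, for Vwf in the cardiomyocytes of Tg mouse 3.

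The promoters of 4 members are shown because these genes took different courses between the preparations: Cldn5 and Tie1 passed the test as lower in cardiomyocyte libraries, while Kdr and Tek had estimates of the opposite sign. Each window runs 5′ to 3′ from 250 bases before to 50 after a start given by RefSeq on GRCm38.p6. For Tie1 that start lies inside the annotated gene (chromosome 4, 118471191 to 118490061), so most of the Tie1 window falls within the gene. Capitals mark GGAA or its reverse complement TTCC.
Cldn5, chr16:18776597-18776896, plus strand: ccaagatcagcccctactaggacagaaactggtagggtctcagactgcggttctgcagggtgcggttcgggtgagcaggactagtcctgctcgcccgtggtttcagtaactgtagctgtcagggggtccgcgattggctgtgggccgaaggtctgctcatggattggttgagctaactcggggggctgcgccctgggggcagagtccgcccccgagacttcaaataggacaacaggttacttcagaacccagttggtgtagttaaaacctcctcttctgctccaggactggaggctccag
Tie1, chr4:118489800-118490099, minus strand: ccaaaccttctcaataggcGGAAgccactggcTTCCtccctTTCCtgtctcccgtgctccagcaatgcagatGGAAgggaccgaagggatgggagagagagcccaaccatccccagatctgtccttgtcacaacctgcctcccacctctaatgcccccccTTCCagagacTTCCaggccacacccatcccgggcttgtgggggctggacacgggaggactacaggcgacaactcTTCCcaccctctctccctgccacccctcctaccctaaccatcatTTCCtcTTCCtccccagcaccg
Kdr, chr5:75978406-75978705, minus strand: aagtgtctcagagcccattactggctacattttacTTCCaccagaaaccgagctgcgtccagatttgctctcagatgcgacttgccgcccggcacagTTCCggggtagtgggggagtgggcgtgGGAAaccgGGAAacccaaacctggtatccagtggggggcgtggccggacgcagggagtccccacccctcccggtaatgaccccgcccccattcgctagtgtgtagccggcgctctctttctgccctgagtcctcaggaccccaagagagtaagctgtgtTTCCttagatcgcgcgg
Tek, chr4:94739039-94739338, plus strand: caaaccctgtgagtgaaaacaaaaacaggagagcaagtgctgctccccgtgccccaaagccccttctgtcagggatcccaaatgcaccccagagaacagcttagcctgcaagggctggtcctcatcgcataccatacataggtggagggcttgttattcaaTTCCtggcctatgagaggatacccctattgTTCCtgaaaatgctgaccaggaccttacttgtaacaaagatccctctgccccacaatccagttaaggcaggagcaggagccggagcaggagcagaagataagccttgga
The windows hold 0 matches in Cldn5, 9 in Tie1, 5 in Kdr and 2 in Tek, counted on both strands. Of 32851 promoter windows of this length, 96% hold at least 1 match, with a median of 3. A match describes the letters and not a bound site. Windows were on hand for 7 of the 10 members, and those of Pecam1, Cdh5 and Vwf were not used here.

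Cardiomyocyte columns held 10.9 M to 17.2 M counts (M, 1e6) and fibroblast columns 17.3 M to 61.3 M. The 13 mitochondrial genes took 51.7% to 85.5% of the cardiomyocyte and 16.7% to 74.2% of the fibroblast counts, the highest fibroblast share being that of WT mouse 1. Levels are therefore given per 1e6 counts of the nuclear genes (nuclear CPM), of which cardiomyocyte columns held 2.26 M to 7.79 M and those of fibroblasts 11.3 M to 15.8 M. A detection floor of 3 counts stood for 0.19 to 1.33 nuclear CPM, far under every member. All 13 cardiomyocyte markers were higher in cardiomyocyte libraries, whereas 2 of 13 fibroblast markers were higher and 1 was lower there. The median member level per kb of transcript was 55.1 to 166 nuclear CPM in a mouse's cardiomyocytes. Beside it stood 142 to 286 for the cardiomyocyte, 73.3 to 239 for the fibroblast and 12.2 to 83.3 for the macrophage markers. In fibroblast libraries the member level was 79.8 to 148, beside 39.9 to 116 for the fibroblast and 172 to 399 for the macrophage markers. Bag3, the gene named by the transgene, had 1568, 658 and 561 counts in Tg+ and 880, 410 and 403 counts in Bag3-WT cardiomyocytes. These columns differed in depth. Scaled between libraries (TMM), Bag3 stood at 61.9, 46.8 and 77.1 CPM in Tg+ and 130.7, 48.6 and 43.0 in Bag3-WT cardiomyocytes. The log2 fold change (log2FC) there was −0.27 (standard error, SE, 0.48, edgeR adjusted p = 1.00). Whether reads of the transgene are counted under Bag3 is not known, since its species is not stated. Fibroblasts had 5739, 7000 and 2566 Bag3 counts in Tg+ and 3636, 6307 and 4001 in Bag3-WT mice (log2FC 0.13, SE 0.36, edgeR adjusted p = 0.939). Tg+ and Bag3-WT mice overlapped in both preparations.

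The adhesion genes come first. Pecam1 (ENSMUSG00000020717.19, GRCm38 chromosome 11, 106654217 to 106750628, minus strand) encodes CD31, which joins endothelial cells and also sits on platelets and leukocytes. Its cardiomyocyte levels were 1184, 876 and 377 nuclear CPM in Tg+ mice 1 to 3 and 694, 828 and 412 in Bag3-WT mice 1 to 3, with Tg+ values on both sides of the Bag3-WT range. In fibroblast libraries Pecam1 stood at 651, 372 and 666 nuclear CPM in Tg+ and at 387, 416 and 392.3 in Bag3-WT mice, and no Tg+ mouse fell within the narrow Bag3-WT band. Cdh5 (ENSMUSG00000031871.9, chromosome 8, 104101625 to 104144511, plus strand) encodes VE-cadherin, the core of the endothelial adherens junction. It reached 1029.6, 818 and 391 nuclear CPM in Tg+ and 556, 819 and 405 in Bag3-WT cardiomyocytes. Tg mouse 3 was lowest in cardiomyocytes and, at 962 nuclear CPM, highest in fibroblasts, where the other Tg+ mice had 495 and 514 and the Bag3-WT mice 284, 489 and 589. The annotation places an antisense gene, Gm29682, over Cdh5, and the strandedness of the libraries is not stated, so reads of the pair cannot be told apart.

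Cldn5 (ENSMUSG00000041378.2, chromosome 16, 18776847 to 18778262, plus strand) encodes claudin-5, the main tight junction strand protein of endothelium. Its cardiomyocyte levels were 216, 134 and 135 nuclear CPM in Tg+ and 138, 131 and 106 in Bag3-WT mice. Its fibroblast levels were 585, 787 and 659 nuclear CPM in Tg+ and 198, 651 and 686 in Bag3-WT mice. Every fibroblast library of a mouse thus lay above the cardiomyocyte libraries of the same mouse, and WT mouse 1 lay far under the other fibroblast libraries.

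Kdr and Flt1 encode VEGF receptors. Kdr (ENSMUSG00000062960.10, chromosome 5, 75932827 to 75978458, minus strand) is VEGFR2, which carries most VEGF signalling. It stood at 994, 594 and 368 nuclear CPM in Tg+ and 543, 814 and 350.4 in Bag3-WT cardiomyocytes, and the groups overlapped. In fibroblast libraries Kdr had 414, 284 and 614 nuclear CPM in Tg+ and 202, 291 and 294 in Bag3-WT mice, with Tg mouse 2 just under the upper Bag3-WT values. Flt1 (ENSMUSG00000029648.13, chromosome 5, 147561604 to 147726011, minus strand) is VEGFR1, a high-affinity receptor that also holds VEGF away from KDR. Its levels were 699, 452 and 332 nuclear CPM in Tg+ and 353, 524 and 262 in Bag3-WT cardiomyocytes. In fibroblasts Flt1 had 605, 415 and 905 nuclear CPM in Tg+ and 236, 411 and 451 in Bag3-WT mice. Tg mouse 3 was again highest in the fibroblast and among the lower mice in the cardiomyocyte libraries.

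Tie1 and Tek encode the receptor pair of the angiopoietin system. Tek (ENSMUSG00000006386.15, chromosome 4, 94739289 to 94874976, plus strand) is TIE2, which binds the angiopoietins. It had 413, 281 and 91.7 nuclear CPM in Tg+ and 192, 296 and 147 in Bag3-WT cardiomyocytes. Its fibroblast levels were 153, 109 and 133 nuclear CPM in Tg+ and 83.3, 103 and 104 in Bag3-WT mice, so that the Tg+ values all lay above. Tie1 (ENSMUSG00000033191.14, chromosome 4, 118471191 to 118490061, minus strand) is the partner receptor that modulates TIE2. Tie1 stood at 694, 546 and 189 nuclear CPM in Tg+ and 401, 546 and 257 in Bag3-WT cardiomyocytes. In fibroblasts it had 730.1, 562 and 482 nuclear CPM in Tg+ and 374, 522 and 551 in Bag3-WT mice, and the groups overlapped.

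Emcn (ENSMUSG00000054690.17, chromosome 3, 137341067 to 137432185, plus strand) encodes endomucin, a sialomucin of capillary and venous endothelium. It had 311, 213 and 100.5 nuclear CPM in Tg+ and 127, 169 and 102 in Bag3-WT cardiomyocytes, and 123, 68.9 and 123 in Tg+ and 84.7, 84.5 and 59.997 in Bag3-WT fibroblasts. Egfl7 (ENSMUSG00000026921.18, chromosome 2, 26580014 to 26593120, plus strand) encodes a matrix protein secreted by endothelium and hosts the microRNA gene Mir126a. Its cardiomyocyte levels spanned 1.97-fold, the narrowest span of the 10 members there, with 294, 249 and 231 nuclear CPM in Tg+ and 174, 256 and 149 in Bag3-WT mice. Fibroblasts had 289, 180.3 and 263 nuclear CPM of Egfl7 in Tg+ and 138, 180.2 and 176 in Bag3-WT mice. Egfl7 overlaps the protein-coding genes Gm20532 on the same and Agpat2 on the other strand, which may share reads with it.

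Vwf (ENSMUSG00000001930.17, chromosome 6, 125546774 to 125686679, plus strand) encodes von Willebrand factor, which endothelium stores and secretes and which tethers platelets. It was the member that differed most between mice. Cardiomyocyte levels were 3470.1, 726 and 89.9 nuclear CPM in Tg+ and 1330.5, 1688 and 473 in Bag3-WT mice. Fibroblast levels were 2104, 492 and 352 nuclear CPM in Tg+ and 872, 378 and 309 in Bag3-WT mice. Both extremes in cardiomyocytes were Tg+ mice, 38.6-fold apart. Platelets also carry this protein, and the summed level of 12 platelet and megakaryocyte markers was 49.3 to 136 nuclear CPM in Tg+ and 71.7 to 159 in Bag3-WT cardiomyocytes. In fibroblasts that sum was 231 to 411 nuclear CPM in Tg+ and 426 to 572 in Bag3-WT mice, and its part in the Vwf values was not tested. In the cardiomyocyte columns 3 to 8 of the 12 genes had no counts after rounding, so part of the list carried the sum there. Endocardial genes summed to 1541, 717 and 216 nuclear CPM in Tg+ and 755, 828 and 419 in Bag3-WT cardiomyocytes. The mesothelial (36.8) and lymphatic (124) sums were also lowest in the cardiomyocytes of Tg mouse 3, while the pericyte and smooth muscle sum (2424) was highest there. The part of these shifts in the Vwf values was not tested.

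**Figure D1:**
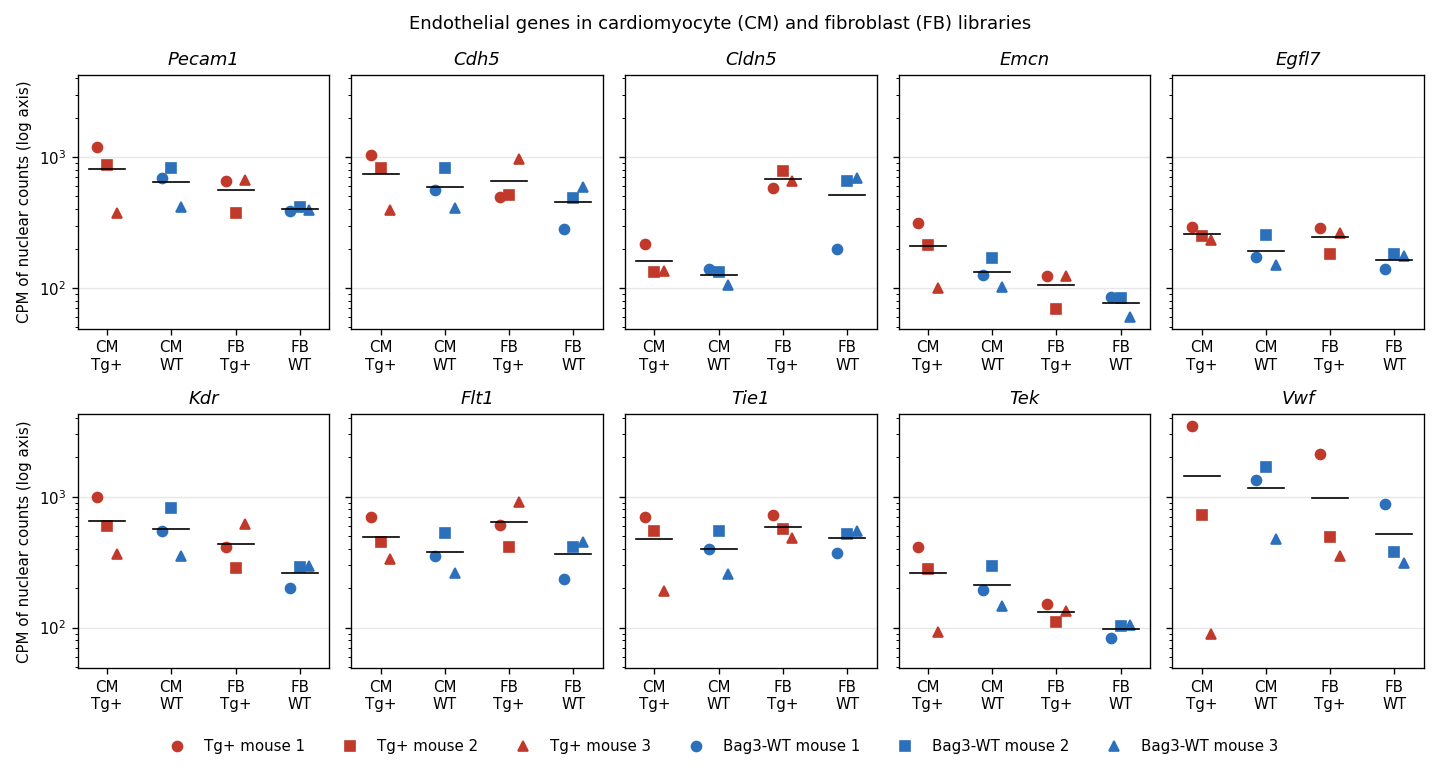
Level of each of the 10 members (nuclear CPM, log axis) in every mouse, with cardiomyocyte libraries left of fibroblast libraries and Tg+ mice left of Bag3-WT mice. Each point is 1 mouse and a bar marks the group mean; Vwf spans the widest range, 89.9 to 3470.1 nuclear CPM in cardiomyocytes, and Cldn5 lies higher in fibroblast libraries.

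Genes can be ranked against each other only per transcript length, here per kb of the longest protein-coding transcript. In cardiomyocyte libraries the mean levels were 212 nuclear CPM per kb for Pecam1, 168 for Cdh5, 162 for Egfl7, 147 for Vwf, 104 for Tie1, 103 for Kdr, 101 for Cldn5, 65.8 for Emcn, 63.4 for Flt1 and 50.9 for Tek. By this length Pecam1 was above Cdh5, Cldn5 above Emcn and Flt1 above Tek in all 6 mice. The other neighbours in that order changed places between mice, each holding its place in 3 or 4 of 6. In fibroblast libraries Cldn5 led with 420 ± 145 nuclear CPM per kb (SD, n = 6), above 99.3% of the 17490 genes with a length. It was followed by Egfl7 at 147, Pecam1 at 139.8, Cdh5 at 139, Tie1 at 127, Vwf at 85.0, Flt1 at 73.1, Kdr at 59.0, Emcn at 35.0 and Tek at 24.5. Per kb of the longest transcript, Cldn5 exceeded Egfl7 in all 6 mice, by a mean of 1.44 on the log2 scale (SD 0.63). Flt1 over Kdr, Kdr over Emcn and Emcn over Tek also held in all 6 by that length. The places from Egfl7 to Flt1 did not separate beyond their spread. The order depended on the length used. With the median transcript length, Vwf moved from place 4 to place 1 in cardiomyocytes and Pecam1 from place 1 to place 4. Cdh5 (place 3) then stood above Pecam1, and Emcn (place 5) above Cldn5 (place 8). In fibroblasts Cldn5 kept place 1 with that length, and Vwf moved from place 6 to place 2. Emcn (66.8 nuclear CPM per kb) then stood above Kdr (59.0) there.

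The first comparison set the cardiomyocyte libraries against the fibroblast libraries of the same 6 mice. Claudin-5 RNA was much lower in cardiomyocyte libraries, and the angiopoietin receptor partner Tie1 was lower to a lesser degree, whereas the other 8 members did not pass the test. Cldn5 fell by 2.39 on the log2 scale (SE 0.31, edgeR adjusted p = 0.00016), a 5.24-fold difference. It had 46.5 ± 11.2 CPM in cardiomyocyte and 258 ± 94.8 CPM in fibroblast libraries after TMM scaling (SD, n = 6 mice). The within-mouse log2 differences of Cldn5 were −1.84, −3.20 and −2.36 in Tg+ mice and −0.91, −2.87 and −3.08 in Bag3-WT mice. Tie1 was lower by a log2FC of −0.81 (SE 0.22, edgeR adjusted p = 0.0127), with 139 ± 53.4 CPM in cardiomyocyte and 232 ± 48.1 CPM in fibroblast libraries. Its within-mouse differences were −0.48, −0.68 and −1.42 in Tg+ and −0.29, −0.49 and −1.48 in Bag3-WT mice. Both genes were thus lower in cardiomyocytes of 6 of 6 mice, as was Egfl7, which did not pass (log2FC −0.26, SE 0.17, edgeR adjusted p = 0.237). In bulk libraries, fewer cells of a type and less RNA per cell cannot be told apart.

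Called in either direction were 2 of 10 members, beside 44.6% of the 13891 genes tested. Called lower were 2 members, beside 24.9% of genes, and called higher 0 members, beside 19.7%. The 3 members lower in every mouse stand beside 24.5% of genes. The median log2FC was −0.03 for the members, of which 5 had positive and 5 negative estimates, and −0.04 for all genes. Among the receptors, Tek (0.52, SE 0.24, edgeR adjusted p = 0.0987) and Kdr (0.39, SE 0.27, edgeR adjusted p = 0.251) had positive estimates, as had Emcn (0.43, SE 0.21, edgeR adjusted p = 0.111). Flt1 had a negative one (−0.57, SE 0.25, edgeR adjusted p = 0.0863). Pecam1 (0.13, SE 0.24), Cdh5 (−0.13, SE 0.29) and Vwf (0.08, SE 0.38) lay near 0, with 95% intervals of −0.40 to 0.65, −0.77 to 0.51 and −0.76 to 0.91.

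The calls depended on how the libraries were scaled. Over all genes, TMM gave 2734 calls higher and 3456 lower. When nuclear counts alone set the library size, the median of all genes moved to 0.39, with 4770 calls higher and 2250 lower, and 4 members were called. Cldn5 stayed lower at −1.98 (edgeR adjusted p = 0.000321), while Tie1 no longer passed (−0.39, edgeR adjusted p = 0.213). Tek (0.94), Emcn (0.85) and Kdr (0.81) then passed as higher in cardiomyocyte libraries. With total library size alone the median of all genes moved to −0.95, with 457 calls higher and 6616 lower, and 5 members were called, all as lower. Relative to the median of all genes, Cldn5 stood between −2.35 and −2.38 under each of the 5 scalings. A change of scaling moves all genes nearly alike, so this constancy holds by construction for any gene and is no test of Cldn5. Without Tg mouse 3, 5 members passed, with Tek at 0.73, Kdr at 0.62 and Emcn at 0.58 as higher. Without WT mouse 3, Tie1 fell just short (−0.67, edgeR adjusted p = 0.052), which left 1 called member.

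**Figure D2:**
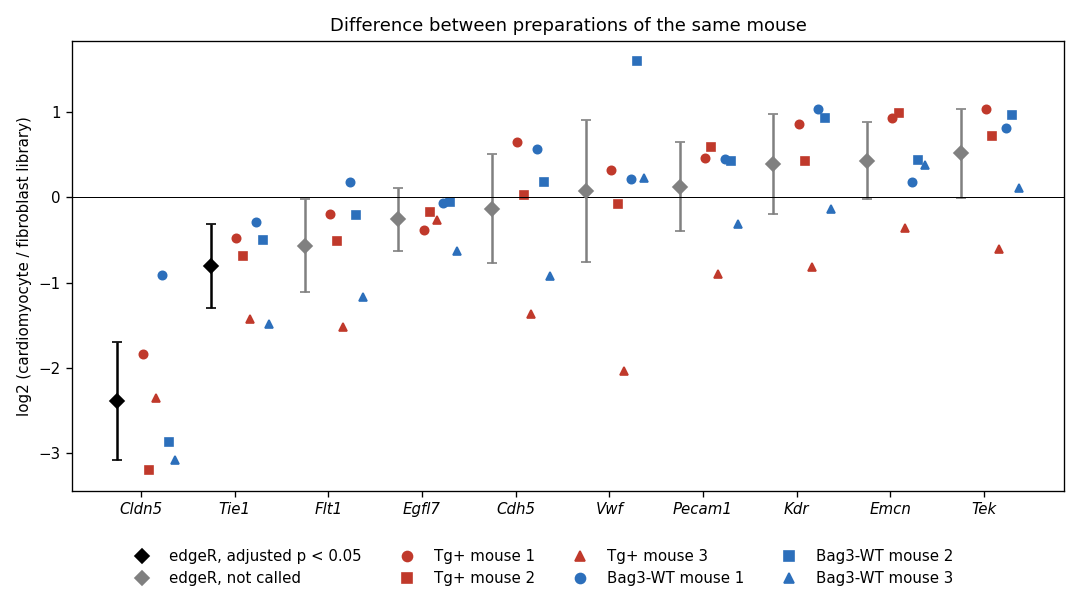
Log2 difference between cardiomyocyte and fibroblast libraries of the same mouse (TMM-scaled CPM) for each member. Each coloured point is 1 mouse, Tg+ mice left of Bag3-WT mice, and diamonds are edgeR estimates with 95% intervals, black where the adjusted p passed; Cldn5 lies under 0 in 6 of 6 mice, from −0.91 to −3.20, and Tg mouse 3 is the lowest mouse for Pecam1, Cdh5, Kdr, Flt1, Tek, Emcn and Vwf.

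Of 23 further endothelial markers, 5 were higher and 6 lower in cardiomyocyte libraries (median log2FC −0.07), shares close to the 19.7% and 24.9% of all genes. The apelin receptor gene Aplnr (2.55, SE 0.34, edgeR adjusted p = 0.000188) and the surface lectin gene Clec14a (1.70, SE 0.27, edgeR adjusted p = 0.000578) were higher, and Rasip1 (−1.84, SE 0.25, edgeR adjusted p = 0.000225), a RAP1 partner in vessel lumen formation, was lower. Aplnr stood at 27.4 to 145 nuclear CPM in Tg+ and 79.6 to 121 in Bag3-WT cardiomyocytes, and at 9.1 to 18.5 in Tg+ and 6.7 to 14.3 in Bag3-WT fibroblasts. Among ligands and partners of the member receptors, 3 of 11 tested were higher and 4 lower. Those higher were the VEGF family genes Vegfc (1.90, SE 0.22, edgeR adjusted p = 6.11e-05) and Vegfb (1.35, SE 0.21, edgeR adjusted p = 0.000524), and the TIE2 ligand gene Angpt1 (2.56, SE 0.41, edgeR adjusted p = 0.000559). The tip cell and VEGF response list had 1 gene higher, the ligand gene Apln (1.65, SE 0.28), and 3 lower of 8. The chemokine receptor gene Cxcr4 (−2.66, SE 0.26) and Notch1 (−1.57, SE 0.23) were among the lower.

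Junction partners had 2 higher and 1 lower of 12. The junction genes Jam3 (0.98, SE 0.26, edgeR adjusted p = 0.0100) and Cd99l2 (0.74, SE 0.20, edgeR adjusted p = 0.0121) were higher, Cd99l2 turning to −0.17 with total library size. Of 16 endothelial transcription factors, 8 were lower and 3 higher (median −0.63). Sox17, of arterial endothelium, was at −2.07 (SE 0.32), the flow-responsive Klf4 at −1.50 (SE 0.23) and the homeobox gene Meox2 at 1.33 (SE 0.21). 
Of 11 genes of endothelial activation and haemostasis, 9 passed as lower and 0 as higher (median −2.34). The leukocyte adhesion genes Sele (−5.23, SE 0.44, edgeR adjusted p = 7e-06) and Icam1 (−4.70, SE 0.33, edgeR adjusted p = 2.45e-06) and the protein C receptor gene Procr (−3.13, SE 0.27) were among the lower. Icam1 had 39.8 to 211 nuclear CPM in Tg+ and 70.3 to 172 in Bag3-WT cardiomyocytes, against 2050 to 2520 in Tg+ and 1418 to 2168 in Bag3-WT fibroblasts. Icam1 is not confined to endothelium. Of 16 immediate early and dissociation genes, 15 were also lower and 0 higher in cardiomyocyte libraries (median −1.96), and 12 of 13 macrophage markers were lower (median −2.17). Their part in the activation genes and in Cldn5 was not tested.

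The vessel-bed lists are small, and their counts stand beside 19.7% of all genes called higher and 24.9% called lower. Of 9 capillary genes 4 were higher and 1 lower, with the fatty acid binding gene Fabp5 at 0.96 (SE 0.23), Timp4 at 0.90 (SE 0.25) and Rgcc at −0.69 (SE 0.21). Of 11 arterial genes 3 were higher and 3 lower, with Gja5 of the gap junction at 1.57 (SE 0.35), Stmn2 at 1.48 (SE 0.24) and the Notch ligand gene Jag1 at −1.78 (SE 0.30). Of 5 venous genes 2 were higher and 1 lower: the venous identity factor Nr2f2 was at 2.15 (SE 0.20), Ephb4 at 0.62 (SE 0.20, −0.29 with total library size) and P-selectin, Selp, at −4.85 (SE 0.43). All 6 lymphatic genes had negative estimates and 3 were lower, Lyve1 (−1.59, SE 0.30), which macrophages also express, Pdpn (−1.40, SE 0.34) and Reln (−0.997, SE 0.36). Of 6 endocardial genes 3 were higher and 1 lower, with Npr3 at 1.16 (SE 0.25), Cytl1 at 0.94 (SE 0.24) and Nfatc1 at −2.23 (SE 0.31). Each of these genes had an edgeR adjusted p under 0.05. Under nuclear library size Rgcc (edgeR adjusted p = 0.254) and Reln (edgeR adjusted p = 0.235) did not pass. Under total library size Clec14a, Vegfb, Apln, Jam3, Cd99l2, Meox2, Fabp5, Timp4, Stmn2, Gja5, Ephb4, Npr3 and Cytl1 did not.

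The split of these lists moved with the scaling, as that of all genes did. Under nuclear library size the further endothelial markers had 8 higher and 1 lower, the ligands and partners 5 and 3, the junction partners 4 and 1, the transcription factors 3 and 4, the arterial genes 5 and 1 and the endocardial genes 4 and 1. Under total library size the further endothelial markers had 1 higher and 12 lower, the ligands and partners 2 and 5, the junction partners 0 and 4, the transcription factors 0 and 12, the capillary genes 0 and 2, the arterial genes 0 and 5 and the endocardial genes 0 and 2. The activation and haemostasis genes had 0 higher under each scaling and 6 to 9 lower.

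Of 13 genes linked to endothelial to mesenchymal transition, 7 were higher and 2 lower in cardiomyocyte libraries (median 1.73). The contractile genes Tagln (3.34, SE 0.34) and Cnn1 (3.46, SE 0.36) and the cadherin gene Cdh2 (2.60, SE 0.28) had the lowest p-values of the list, and all 3 are also expressed by smooth muscle or heart muscle. Of 9 pericyte and smooth muscle markers 7 were higher and 0 lower, among them Kcnj8 (1.45, SE 0.23), Pdgfrb (1.12, SE 0.19) and Cspg4 (1.34, SE 0.28). Under total library size these 3 did not pass (edgeR adjusted p = 0.230, 0.669 and 0.375). The summed pericyte level was 1724 to 2424 nuclear CPM in Tg+ and 916 to 2085 in Bag3-WT cardiomyocytes, against 470.5 to 2178 in Tg+ and 335 to 670.0 in Bag3-WT fibroblasts. Of 7 mesothelial markers 6 were higher and 1 lower, with Lrrn4 at 3.13 (SE 0.30), Upk3b at 2.64 (SE 0.30) and Muc16 at 2.63 (SE 0.33). Of 6 platelet markers tested 4 were lower, Pf4 (−2.34, SE 0.24), Ppbp (−3.35, SE 0.42) and Itga2b (−3.36, SE 0.75) among them.

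The second comparison set Tg+ against Bag3-WT cardiomyocytes. No member passed the test, and the Tg+ and Bag3-WT mice overlapped for all 10 members. Over all genes 4.86% had no overlap, 2.27% with Tg+ above and 2.6% with Tg+ below. The log2FC of all 10 were positive, from 0.19 (Kdr) to 0.64 (Emcn), with a median of 0.32 against 0.01 over the 12439 genes tested. edgeR called 0 of 10 members and 0% of all genes, with 0 members and 89 genes at an unadjusted p under 0.05, and DESeq2 and limma voom also called 0 members. The genes share their libraries, so their common sign is not 10 separate observations. Emcn averaged 48.4 ± 21.8 TMM-scaled CPM in Tg+ and 31.2 ± 6.32 in Bag3-WT cardiomyocytes (SD, n = 3 mice each; SE of the log2FC 0.40, edgeR adjusted p = 1.00). Egfl7 averaged 61.5 ± 5.84 in Tg+ and 45.3 ± 10.4 in Bag3-WT cardiomyocytes, with a log2FC of 0.44 (SE 0.31).

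The intervals left room for sizeable differences in either direction. The 95% interval ran from −0.28 to 1.55 for Emcn, from −0.34 to 1.09 for Cldn5, from −0.73 to 1.36 for Pecam1 and from −2.08 to 2.58 for Vwf. Tg mouse 1 had the highest value of every member among the cardiomyocyte columns. Without that mouse Kdr was −0.17, Tie1 −0.09, Tek −0.15 and Vwf −1.51, and Pecam1 (0.0026), Cdh5 (0.08), Flt1 (0.13) and Emcn (0.29) came closer to 0. Without WT mouse 3 Kdr was −0.05, Tie1 −0.0029 and Vwf −0.12. The same Tg mouse 1 column had the lowest summed cardiomyocyte markers, 3651 nuclear CPM, and the lowest mitochondrial share, 51.7%, the next lowest being 72.8%. Of the other lists, 22 of 23 further endothelial markers and 9 of 9 capillary genes had positive estimates, and none passed. All 6 lymphatic genes had negative ones. The capillary genes summed to 5430 to 6302 nuclear CPM in Tg+ and 3727 to 5045 in Bag3-WT cardiomyocytes, without overlap. The further endothelial markers summed to 3227 to 8772 in Tg+ and 3537 to 6274 in Bag3-WT cardiomyocytes, with overlap. Summed cardiomyocyte markers were 3651 to 7339 nuclear CPM in Tg+ and 7078 to 9731 in Bag3-WT cardiomyocytes, and all 13 had negative estimates (median −0.62, none called). Macrophage markers summed to 1192 to 4748 nuclear CPM in Tg+ and 2975 to 5489 in Bag3-WT cardiomyocytes. The part of these shifts in the member values was not tested.

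The third comparison set Tg+ against Bag3-WT fibroblasts. Again no member passed, and again all 10 estimates were positive, from 0.25 (Tie1) to 0.86 (Vwf), with a median of 0.45 against 0.01 over 13571 genes. edgeR called 0 of 10 members and 0% of all genes, with 1 member and 690 genes at an unadjusted p under 0.05, and DESeq2 and limma voom called 0 members. Kdr, Tek and Egfl7 had no overlap between the groups on the TMM scale, Tg+ being above, which is 3 of 10 members beside 5.51% of all genes. No member had Tg+ below without overlap, beside 7.58% of genes, which made 13.1% in either direction. Kdr averaged 250.2 ± 78.6 CPM in Tg+ and 158 ± 34.6 in Bag3-WT fibroblasts (SD, n = 3 mice each; log2FC 0.66, SE 0.29, edgeR adjusted p = 0.768). Tek averaged 76.2 ± 7.85 CPM in Tg+ and 58.3 ± 8.33 in Bag3-WT fibroblasts (log2FC 0.39, SE 0.17, edgeR adjusted p = 0.768). Egfl7 averaged 140.5 ± 22.8 CPM in Tg+ and 99.3 ± 16.0 in Bag3-WT fibroblasts (log2FC 0.50, SE 0.21, edgeR adjusted p = 0.768). On nuclear CPM the separation was slight for Egfl7 and was lost for Kdr.

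Flt1 averaged 367 ± 117 CPM in Tg+ and 221 ± 72.6 in Bag3-WT fibroblasts, with a log2FC of 0.73 (SE 0.34) and a 95% interval of −0.06 to 1.52. Pecam1 stood at 0.43 (SE 0.23), Cdh5 at 0.46 (SE 0.36), Emcn at 0.39 (SE 0.23) and Cldn5 at 0.36 (SE 0.46). Cldn5 was −0.02 without WT mouse 1, the lowest fibroblast library for 8 members on the TMM scale, and Vwf was −0.28 without Tg mouse 1. The sign of the other 8 held whichever mouse was left out, but some values moved by over 1.5 times. Without Tg mouse 3 Cdh5 was 0.17, Kdr 0.41 and Flt1 0.47, and without WT mouse 1 Cdh5 was 0.21, Flt1 0.49 and Tie1 0.09. Tie1 was 0.11 without Tg mouse 1 and 0.42 without Tg mouse 3. Emcn was 0.25 without WT mouse 3. Of the other lists, 23 of 23 further endothelial markers (median 0.51), 16 of 16 endothelial transcription factors (median 0.50), 9 of 9 capillary (median 0.90) and 6 of 6 endocardial genes (median 0.47) had positive estimates, while 5 of 6 lymphatic genes had negative ones. Fibroblast markers (12 of 13, median 0.36), pericyte markers (8 of 9, median 0.37) and immediate early genes (12 of 16, median 0.23) were mostly positive as well, and mesothelial markers mostly negative (6 of 7, median −1.50). None passed. The capillary genes summed to 3522, 2948 and 7707 nuclear CPM in Tg+ and 1838, 3244 and 3239 in Bag3-WT fibroblasts, and the pericyte markers to 470.5, 528 and 2178 in Tg+ and 335, 670.0 and 564 in Bag3-WT fibroblasts. Tg mouse 3 thus stood apart in both sums, and Tg mouse 2 lay within the Bag3-WT range. Macrophage markers all had negative estimates (13 of 13, median −0.73, none called), and their sum was 5708 to 11251 nuclear CPM in Tg+ and 13260 to 16370 in Bag3-WT fibroblasts, without overlap. The members' sum was 3785 to 6150 nuclear CPM in Tg+ and 2860 to 3612 in Bag3-WT fibroblasts. How far the macrophage share moved the member values was not tested.

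**Figure D3:**
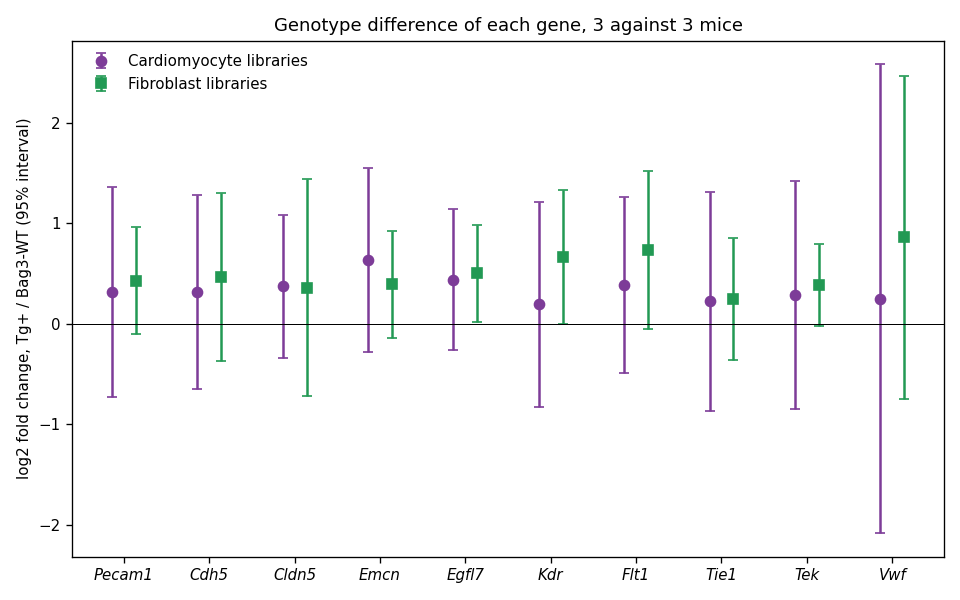
Log2 fold change of Tg+ over Bag3-WT mice with 95% intervals for each member, in cardiomyocyte and in fibroblast libraries (3 mice per genotype, edgeR). All 20 estimates lie above 0, and 19 of the intervals cross it, the exception being Egfl7 in fibroblasts (0.02 to 0.98). The intervals are not adjusted for the number of genes, and Egfl7 did not pass (edgeR adjusted p = 0.768).

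The genotype difference in cardiomyocytes minus that in fibroblasts was tested as an interaction. edgeR, limma voom and DESeq2 each called 0 members. Of 13891 genes edgeR called 0%, with 0 members and 124 genes at an unadjusted p under 0.05. Member estimates ran from −1.24 (Vwf, SE 0.69, 95% interval −2.79 to 0.31) to 0.19, and 9 of 10 were negative. With total library size 7 were positive, and the median of all genes was then 0.30. Relative to that median Pecam1 stood at −0.12, Cdh5 at −0.16 and Tie1 at −0.10.

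Most members varied together from mouse to mouse. In cardiomyocytes, correlations between the 8 members other than Vwf and Cldn5 had a median r of 0.929 (0.575 to 0.989, 28 pairs over 6 mice). Vwf correlated with the other members at 0.309 to 0.921 and Cldn5 at 0.546 to 0.837. In fibroblasts the 8 had a median r of 0.772 (0.188 to 0.987), while Vwf ranged from −0.466 to 0.509 and Cldn5 from −0.376 to 0.744. All members of a column share its library and scaling, so these values only describe the columns. Repeats of a mouse stayed close together. Over 60 pairs of member values in rep1 and rep2, the median absolute log2 difference was 0.078. The highest was 0.608, for Kdr in Tg mouse 3. If rep1 and rep2 are sequencing rounds of the same library, which is not stated, these values show only the spread of sequencing.

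The count ratio of Vwf to Cdh5 sets von Willebrand factor against 1 other member and moves with either gene. It was 3.37, 0.888 and 0.230 in Tg+ and 2.39, 2.06 and 1.17 in Bag3-WT cardiomyocytes. In fibroblasts it was 4.25, 0.957 and 0.366 in Tg+ and 3.07, 0.773 and 0.525 in Bag3-WT mice. Tg mouse 1 was highest, WT mouse 1 next and Tg mouse 3 lowest in both preparations, although these were separate libraries. In fibroblasts Tg mouse 3 had the highest Cdh5 (962 nuclear CPM), and its Vwf (352) lay within the Bag3-WT range (309 to 872). The animal codes of Tg mouse 1 and WT mouse 1 begin alike, and the labels do not say what the prefix means. The ratio of Cldn5 to Cdh5 was 0.210, 0.163 and 0.346 in Tg+ and 0.249, 0.160 and 0.261 in Bag3-WT cardiomyocytes. In fibroblasts it was 1.182, 1.53 and 0.685 in Tg+ and 0.696, 1.33 and 1.17 in Bag3-WT mice, so that every fibroblast value exceeded every cardiomyocyte value.

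**Figure D4:**
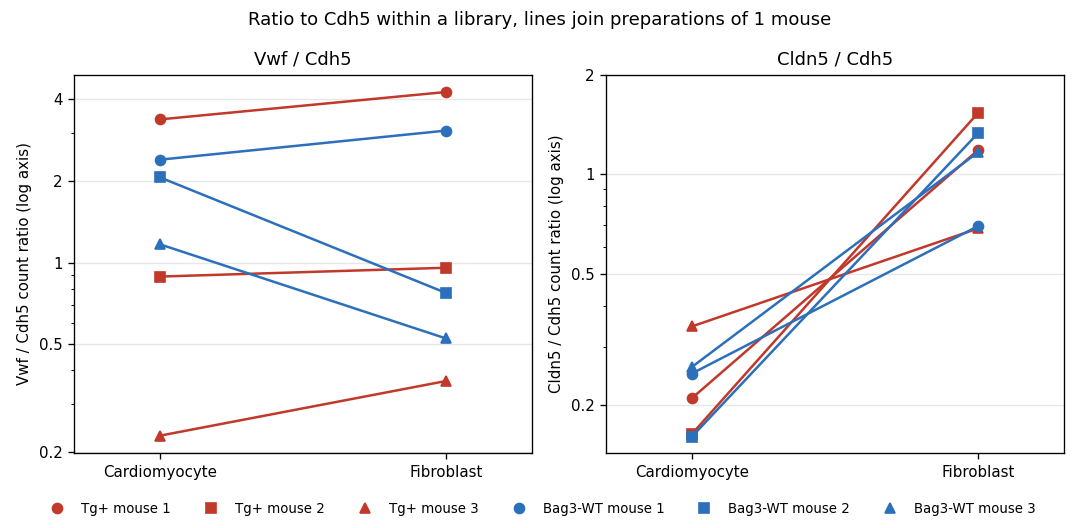
Count ratio of Cldn5 to Cdh5 and of Vwf to Cdh5 (log axes) in each mouse, cardiomyocyte libraries left of fibroblast libraries, with a line joining the preparations of a mouse. Cldn5 relative to Cdh5 is higher in the fibroblast libraries of all 6 mice, while Vwf relative to Cdh5 orders Tg mouse 1 and WT mouse 1 highest and Tg mouse 3 lowest in both.

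The members' common course over the 12 columns was summarised as their mean z-score, centred within each cell type. It was 1.46, 0.45 and −1.21 in Tg+ and −0.20, 0.60 and −1.11 in Bag3-WT cardiomyocytes, and 0.77, −0.15 and 0.83 in Tg+ and −1.06, −0.18 and −0.21 in Bag3-WT fibroblasts. Among the members, Kdr (r = 0.955) and Pecam1 (0.953) followed it most closely and Vwf (0.657) and Cldn5 (0.591) least. Of 11277 other genes, the most alike were Creb3l2 (r = 0.978 over 12 columns), a transcription factor of the unfolded protein response, and Nos3 (0.961), the endothelial nitric oxide synthase. They were followed by Rasgrp3 (0.954), Cdkn1c (0.953), Osbpl5 (0.953), Ablim1 (0.951), Tjp1 (0.949), Slc22a5 (0.946), Dll1 (0.941) and Cdc42ep1 (0.940). Between the preparations Nos3 (−0.88, SE 0.28, edgeR adjusted p = 0.0267) and the carnitine transporter gene Slc22a5 (−0.85, SE 0.21, edgeR adjusted p = 0.00767) were lower in cardiomyocyte libraries, and the sterol-binding gene Osbpl5 (0.74, SE 0.18, edgeR adjusted p = 0.00629) was higher. None of the 10 passed between genotypes in either preparation.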

How the data were processed

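Per the labels' protocols, messenger RNA of isolated cardiomyocytes and fibroblasts was captured on oligo(dT) beads and sequenced on Illumina instruments, and cardiomyocyte samples were sequenced a second time. Whether these rounds are rep1 and rep2 is not stated. The first table deposited by the authors held expected counts (estimated counts) per gene, of which 44.6% were not whole within 1e-06. A normalized signal filled the other table deposited by the authors. Judged by its values, this signal is the expected count over a scaling factor that is specific to the gene and the library. It served only as an alternative offset. Tools named without a role in the submitters' processing notes are DESeq2 1.18.1, kallisto 0.44.0 and R 3.4.4, with the build GRCm38.p6. No source used here gives the annotation or filters.

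The repeat cardiomyocyte libraries of each mouse were added up and rounded, and the mouse was the replicate. Deviations of same-numbered repeats (rep1 or rep2) in opposite genotypes correlated at a mean of 0.0118 (18 pairs), and those of other-numbered repeats at −0.00629. Every mouse has both numbers, and centring within genotype holds such means small. These values therefore cannot show whether mice of opposite genotype were paired, and they were fitted as unpaired. Tests used edgeR 4.0.16 in R 4.3.3 (filterByExpr, TMM, robust glmQLFit, glmQLFTest, two-sided, Benjamini-Hochberg adjusted p under 0.05 over all genes tested), with mouse as block where preparations were compared. Common biological coefficients of variation were 0.361 between cell types, 0.495 and 0.284 by genotype in cardiomyocytes and fibroblasts, and 0.381 for the interaction. Alternatives used DESeq2 1.42.0, limma 3.58.1, other scalings, filters and left-out mice. The fits were tested on simulated data with changes larger than any genotype estimate of a member, so that check does not cover differences of the size reported. Positions and lengths came from GENCODE M21 on GRCm38. The members, lists and comparisons were chosen with earlier results of these data known. Named besides the members were Bag3, up to 3 genes per list with the lowest p past the threshold, and the 10 genes with the highest r to the members' mean z-score (log2 nuclear CPM, prior count 1, mean of at least 5). Not every gene of this rule is printed. Columns that could not be mapped numbered 0. The floor of 3 counts and the p-values cover counting error and the spread between these mice only.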

Additional observations from a re-analysis of the deposited data

Results flagged for a closer look

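In the 6 mice of a cell type, and in their within-mouse log2 differences between cardiomyocyte and fibroblast libraries, a value was singled out where its gap to the nearest mouse, divided by the whole range, exceeded Dixon's 95% critical value for 6 values. Of the 30 series of 6 mice this made for the members, 3 held such a mouse, all 3 of them levels in nuclear CPM, and chance alone singles out about 1 in 20. Cldn5 stood at 215.8 nuclear CPM in the cardiomyocytes of Tg mouse 1, above the other 5 mice (106 to 138). Cldn5 stood at 197.9 nuclear CPM in the fibroblasts of WT mouse 1, under the other 5 (585 to 787). That library had the highest mitochondrial share of the fibroblast libraries (74.2%), and its part in the low value was not tested. Vwf stood at 2104 nuclear CPM in the fibroblasts of Tg mouse 1, above the other 5 (309 to 872). The cardiomyocytes of that mouse also had the highest Vwf.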

How the results depend on the processing

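Of the member values under alternatives, most kept their direction and their side of the threshold, and no alternative called a member between genotypes. Across left-out mice the members called between cell types ranged from 1 to 5, Cdh5 from −0.31 to 0.10 and Vwf from −0.24 to 0.44. By genotype in cardiomyocytes Kdr ranged from −0.17 to 0.48, Tie1 from −0.0903 to 0.56, Tek from −0.15 to 0.65 and Vwf from −1.51 to 0.80. In fibroblasts Vwf ranged from −0.28 to 1.44 and Cldn5 from −0.022 to 0.63. With total library size alone, 5 members were called between cell types, and Pecam1 (−0.78), Kdr (−0.53), Tek (−0.40), Emcn (−0.48) and Vwf (−0.80) turned negative. With nuclear library size, chosen after seeing the data, 4 were called, and Cdh5 (0.29) and Egfl7 (0.15) turned positive. Vwf between cell types was −0.00824 with limma voom and −0.0393 with offsets from the second table. By genotype in cardiomyocytes Vwf was −0.89 with limma voom and −0.15 with the letter of the animal code as covariate. With the libraries kept apart and a replicate block, Vwf was −0.68 and 0 members were called. Among all genes, DESeq2 called 3, 6 and 1 by genotype in cardiomyocytes, in fibroblasts and as interaction, and total library size 2, 2 and 1. The highest Vwf over the lowest in cardiomyocytes was 73.97 in CPM of all counts. With the median transcript length Vwf took place 1 and Pecam1 place 4 in cardiomyocytes. Apart from the scalings, whose construction moves all genes alike, the cause was not tested. With 3 mice per genotype, intervals of the members spanned up to several log2 units, and the 2.26 M nuclear counts (M, 1e6) of the shallowest column did not limit detection of any member.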
